A study of Mus musculus with 12 samples.

Results

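The mRNA levels of 10 genes were examined in the mouse medial prefrontal cortex (mPFC). They were both corticosteroid receptors, Nr3c1 and Nr3c2, and 8 genes that glucocorticoids induce: Tsc22d3, Fkbp5, Zbtb16, Sgk1, Pdk4, Sult1a1, Errfi1 and Cdkn1a. The genes were chosen by name for their known place in the pathway, with earlier results of these data known. All 10 were found among the 17283 genes of the deposited table. All 10 also passed the filter on low values that left 13586 genes for testing. The table gives fragments normalized to exon length and library size (FPKM), a scale on which genes can be compared with each other, for 12 RNA-seq libraries of mPFC total RNA. Both strains received intraperitoneal injections for 7 days of either astragaloside IV (ASIV), which is a plant saponin from the root of Astragalus, or its solvent control, which the sample titles give as DMSO and which is called vehicle here. The 4 groups of 3 libraries were C57 mice (genotype given as wild type) with vehicle, C57 mice with ASIV, BTBR mice (given as an inbred strain) with vehicle and BTBR mice with ASIV. No transgene or induced deletion is named, and the labels are silent on age, sex and dose. The study asked if ASIV helps neurotransmission in BTBR mice, which are used as a model of autism and differ from C57 mice at many loci, so that a strain difference cannot be assigned to 1 gene. In bulk tissue, fewer cells of a type and less RNA per cell cannot be told apart.

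Nr3c1 encodes the glucocorticoid receptor and Nr3c2 the mineralocorticoid receptor. Both rest in the cytosol in complexes with the chaperone HSP90, bind corticosterone, the main glucocorticoid of mice, and then act in the nucleus as transcription factors. The mineralocorticoid receptor binds corticosterone more tightly, so the glucocorticoid receptor fills mainly at the daily peak and under stress. The induced genes are widely used as readouts of receptor activity in brain, and several of them also answer to other signals, such as p53 for Cdkn1a and fasting for Pdk4. BTBR mice are known for raised blood corticosterone and for lacking the corpus callosum. Hormone levels are not among the data analysed here.

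The receptors bind a palindromic glucocorticoid response element, spelled here as the hexamer AGAACA, any 3 bases and the reverse complement TGTTCT. The element and the hexamer were searched for on both strands in the 250 bases before each annotated RefSeq start site (assembly GRCm38.p6), and every full element also counts as a window with a hexamer. Of 32851 windows in all, 3 held the full element (0.00913%) and 16.1% held at least 1 hexamer. Entries existed for 8 of the 10 genes, all but Nr3c1 and Zbtb16, with 17 windows. The element stood in 1 of those 17 windows, at Sgk1, and 5 windows held a hexamer, at Sgk1, Tsc22d3 and Sult1a1. The sequences of these 3 genes are shown because they hold a match. In BTBR vehicle their levels were lowest in replicate 2 and highest in replicate 3, but so were those of Errfi1, whose 2 windows held 0 hexamers, and of Zbtb16, which was not searched. The Sgk1 window, chr10:21993640-21993889 on the plus strand, lies within the Sgk1 gene and overlaps 0 exons of GENCODE M21. The stretches of Tsc22d3 (chrX:140600660-140600772) and Sult1a1 (chr7:126676433-126676668), both on the minus strand, are the upstream part of their windows, cut where the first exon of GENCODE M21 begins. The RefSeq start sites, from which distances are counted, lie further on, after bases that are not printed. Capitals mark the full element in Sgk1, whose last base is 175 bases from the start site, and the hexamers in the other two genes.
Sgk1: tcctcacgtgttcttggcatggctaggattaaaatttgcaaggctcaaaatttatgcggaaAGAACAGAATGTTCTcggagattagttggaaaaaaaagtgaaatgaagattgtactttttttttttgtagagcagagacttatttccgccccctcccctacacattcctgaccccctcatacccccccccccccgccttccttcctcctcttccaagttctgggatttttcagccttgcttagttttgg
Tsc22d3: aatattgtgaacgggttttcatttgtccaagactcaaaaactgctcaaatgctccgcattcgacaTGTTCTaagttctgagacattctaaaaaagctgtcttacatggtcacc
Sult1a1: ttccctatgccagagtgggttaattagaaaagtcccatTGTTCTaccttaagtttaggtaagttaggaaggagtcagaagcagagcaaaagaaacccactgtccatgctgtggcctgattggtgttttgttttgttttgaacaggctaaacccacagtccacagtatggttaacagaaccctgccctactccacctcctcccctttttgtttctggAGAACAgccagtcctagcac
The hexamer of Tsc22d3 begins 185 bases before its RefSeq start site, and those of Sult1a1 begin 212 and 34 bases before it. A further hexamer of the Sgk1 window, outside the element, is left in lower case. A match of letters is a description and does not show that a receptor binds there, and the 28 other glucocorticoid-induced genes followed here (25 with entries, 30 windows) held the full element in 0 windows and a hexamer in 3.

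Libraries were of similar depth, with 16166328 to 18660039 fragments recovered from the FPKM steps, and replicates correlated at Pearson r of 0.971 to 0.992 across genes. The markers of cortical tissue were present, with the 6 excitatory neuron markers summing to 773 to 1105 FPKM. The BTBR vehicle libraries stood apart in the mitochondrial share and the interneuron markers given below. Their excitatory neuron markers summed to 773 to 915 FPKM, wholly below the 1017 to 1105 of C57 vehicle. These sums in C57 ASIV (889 to 917) and BTBR ASIV (892 to 954) also lay wholly below C57 vehicle and overlapped BTBR vehicle. Of the C57 vehicle mean of 1074 FPKM, 612 were Camk2a. Of the 6 markers, 3 were called lower than in C57 vehicle and 0 higher, where 20.8% of all genes were called lower. The estimates were below 0 for 4 of the 6 and above 0 for 2. Mitochondrially encoded genes held 1.90 to 3.65% of the FPKM in BTBR vehicle. They held 14.3 to 15.6% in C57 vehicle, 11.4 to 15.0% in C57 ASIV and 11.6 to 12.8% in BTBR ASIV. The 6 interneuron markers summed to 997 to 1033 FPKM in BTBR vehicle and to 426 to 493 in C57 vehicle. In BTBR ASIV they summed to 491 to 593. Of the C57 vehicle mean of 462 FPKM, 290 were Sst, so that this gene weighs most in the sum. Against C57 vehicle, 3 of the 6 were called higher and 1 lower in BTBR vehicle. The estimates were above 0 for 4 of the 6 and below 0 for 2. Scaling without the mitochondrial genes shifted the log2 median over all genes by -0.11 in BTBR vehicle against C57 vehicle and by 0.12 in BTBR ASIV against BTBR vehicle. The split of calls moved with it, from 3026 higher and 2832 lower to 2030 higher and 3691 lower in the first, and from 1864 higher and 2090 lower to 3021 higher and 1122 lower in the second. The part that these shifts have in the results below was otherwise not tested.

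Under vehicle, the BTBR cortex held less mRNA of both receptors and more of several of the genes they induce (the plot of levels per library shows all 10). Tests were made with limma on log2(FPKM + 1), which understates the change of low genes, with the spread pooled over the 4 groups and p-values adjusted over all genes tested. Genes with an adjusted p under 0.05 were counted as called. Of the 10 genes, 7 were called between BTBR vehicle and C57 vehicle, where 43.1% of all genes were. Tsc22d3, Fkbp5, Zbtb16 and Sult1a1 were higher (22.3% of all genes) and Nr3c1, Nr3c2 and Errfi1 were lower (20.8% of all genes). The groups did not overlap for 7 genes (these without Sult1a1 and with Pdk4), and for 53.3% of all genes. With scaling that leaves out mitochondrial genes, 3 of the 10 were called higher and 3 lower.

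**Figure D1:**
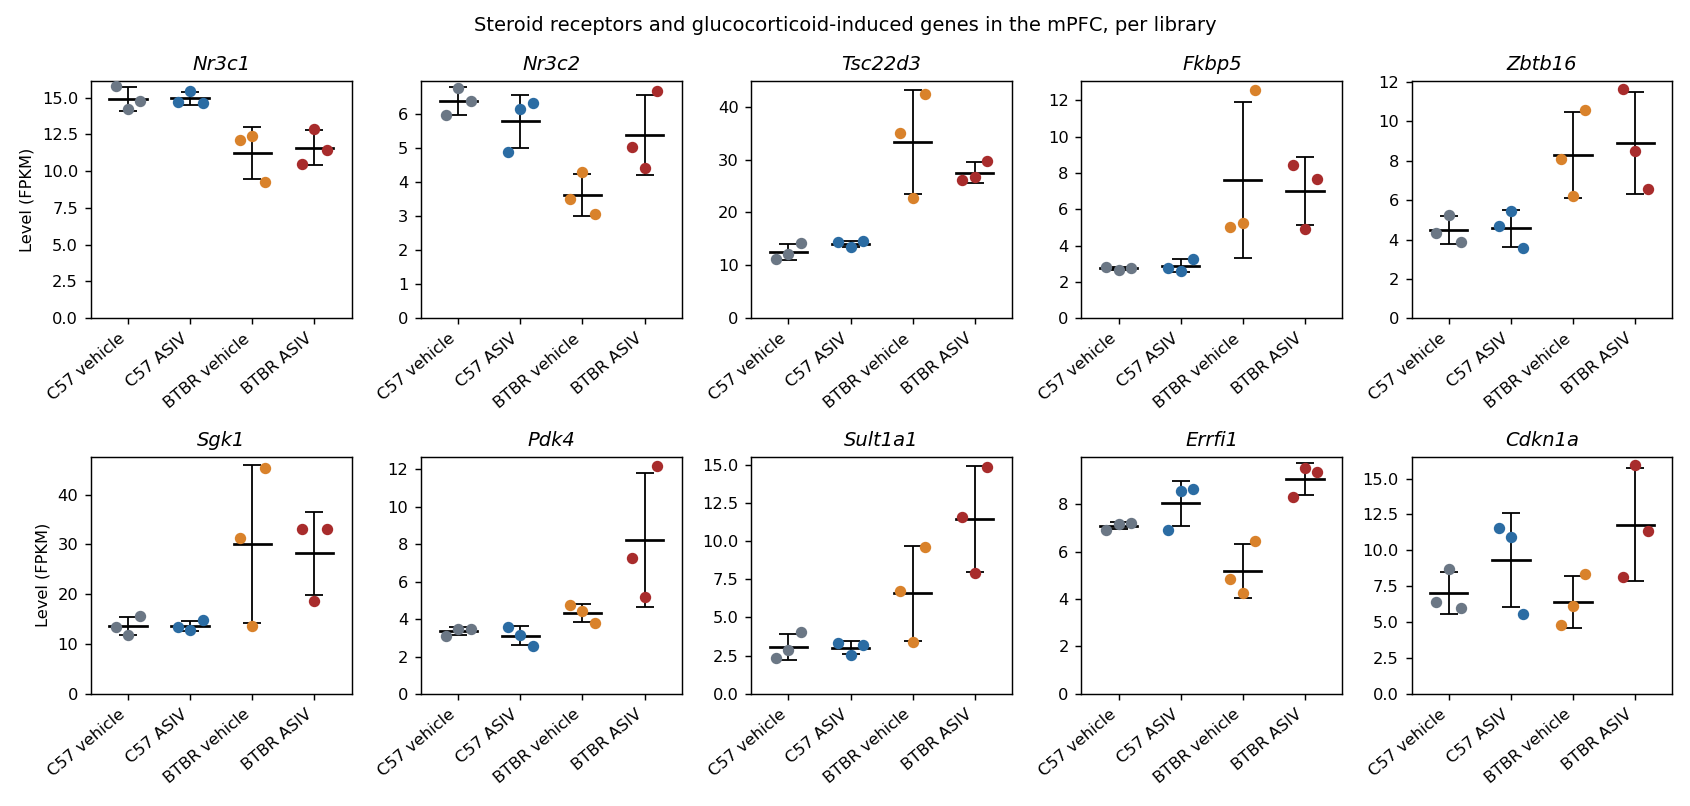
Level of each gene (y axis, FPKM, from 0) in the 3 libraries of each of the 4 groups (x axis), with points for libraries, a bar for the mean and whiskers for the SD. Tsc22d3 lies between 11.3 and 14.5 FPKM in the C57 libraries and between 22.8 and 42.3 in the BTBR libraries.

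The glucocorticoid receptor gene Nr3c1 (chromosome 18, 39410545 to 39519421, mm10) stood at 15.8, 14.2 and 14.8 FPKM in the C57 vehicle libraries and at 12.1, 12.4 and 9.23 FPKM in the BTBR vehicle libraries. Every BTBR library was below every C57 library, with BTBR vehicle replicate 3 lowest. The log2 difference was -0.39 ± 0.11 (SE; limma adjusted p = 0.0131). Without C57 vehicle replicate 1 the Nr3c1 difference was -0.35 with an adjusted p of 0.0545. With ASIV, Nr3c1 stood at 14.7, 15.5 and 14.7 FPKM in C57 and at 10.5, 12.9 and 11.4 FPKM in BTBR. Those groups again did not overlap, and the difference of -0.34 ± 0.11 did not pass (adjusted p = 0.124), although it did without BTBR vehicle replicate 3 in the fit (adjusted p = 0.0468). ASIV left the estimate near 0 within each strain: the log2 difference was 0.05 in BTBR (95% confidence interval -0.19 to 0.29) and 0.00 in C57 (-0.24 to 0.24). In order of mean level, C57 ASIV (14.9 ± 0.447 FPKM, SD, n = 3) and C57 vehicle (14.9 ± 0.806) were followed by BTBR ASIV (11.6 ± 1.20) and BTBR vehicle (11.2 ± 1.75), and only the step between the strains exceeded the spread of its neighbours.

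The mineralocorticoid receptor gene Nr3c2 (chromosome 8, 76899442 to 77245012) showed the strain difference under vehicle and a rise with ASIV in BTBR. It stood at 5.95, 6.76 and 6.38 FPKM in C57 vehicle, at 4.88, 6.15 and 6.30 in C57 ASIV, at 3.49, 4.28 and 3.07 in BTBR vehicle and at 5.04, 4.40 and 6.66 in BTBR ASIV. The BTBR vehicle libraries were the lowest 3 of the 12, and BTBR ASIV overlapped both C57 groups. BTBR vehicle was lower than C57 vehicle by a log2 difference of -0.68 ± 0.14 (SE; limma adjusted p = 0.00209), a call that held in all 23 alternatives. BTBR ASIV was higher than BTBR vehicle by 0.46 ± 0.14 (adjusted p = 0.0275). That call rests on few libraries: the adjusted p was 0.0623 without BTBR vehicle replicate 1, 0.0945 without BTBR vehicle replicate 3, 0.112 without BTBR ASIV replicate 3, and 0.0864 when only the 6 libraries compared were fitted. Between the ASIV groups the difference was -0.10 ± 0.14 (adjusted p = 0.727; 95% interval -0.40 to 0.21). In order, C57 vehicle (6.36 ± 0.406 FPKM, SD, n = 3), C57 ASIV (5.78 ± 0.785) and BTBR ASIV (5.37 ± 1.17) did not differ beyond their spread, and BTBR vehicle (3.61 ± 0.614) lay below all of them.

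The balance of the receptors was taken as the log2 ratio of Nr3c1 to Nr3c2 FPKM in each library. In C57 mice it was 1.23 ± 0.169 (SD, n = 3) with vehicle and 1.38 ± 0.193 with ASIV, and in BTBR mice 1.64 ± 0.136 with vehicle and 1.13 ± 0.390 with ASIV. BTBR vehicle, at 1.53 to 1.79, lay wholly above C57 vehicle, at 1.07 to 1.41, and its lowest library lay below the 1.55 of BTBR ASIV replicate 2. The exact two-sided permutation p was 0.1 for BTBR vehicle against C57 vehicle, the smallest that 3 against 3 libraries can give, and 0.2 to 0.4 for the other 3 comparisons, and all 4 were 0.4 after Benjamini-Hochberg adjustment. Across the 12 libraries the genes most like Nr3c1 in log2 level were Hnrnpa3 (Pearson r = 0.967), Armh4 (0.967) and Cpeb4 (0.962). Those most like Nr3c2 were Pigh (0.951), Vps13b (0.950) and Cacna2d2 (0.950). These correlations span the same 4 groups as the differences above and are given as a description.

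Tsc22d3 (chromosome X, 140539528 to 140600659) encodes the glucocorticoid-induced leucine zipper, which mediates anti-inflammatory effects of the hormone. It stood at 11.3, 12.2 and 14.3 FPKM in C57 vehicle, at 14.3, 13.4 and 14.5 in C57 ASIV, at 35.0, 22.8 and 42.3 in BTBR vehicle and at 26.2, 26.6 and 29.8 in BTBR ASIV. All 6 BTBR libraries were above all 6 C57 libraries. The BTBR mean was 2.66 times the C57 mean under vehicle and 1.96 times under ASIV. The log2 difference was 1.31 ± 0.17 under vehicle (SE; limma adjusted p = 0.000108) and 0.92 ± 0.17 under ASIV (adjusted p = 0.0161). The call under vehicle held in each of the 23 alternatives run, while that under ASIV was lost without C57 ASIV replicate 2 (0.0749), C57 ASIV replicate 3 (0.0658) or BTBR ASIV replicate 3 (0.0738). ASIV in BTBR gave -0.23 ± 0.17 for Tsc22d3 (adjusted p = 0.346), and without the low BTBR vehicle replicate 2 it gave -0.47 (adjusted p = 0.0117).

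Fkbp5 (chromosome 17, 28399094 to 28517527) encodes a co-chaperone of the receptor complex that lowers its affinity for hormone and so closes a feedback loop. The level was 2.80, 2.66 and 2.79 FPKM in C57 vehicle and 2.78, 2.60 and 3.29 in C57 ASIV. In BTBR it was 5.01, 5.23 and 12.6 with vehicle and 8.43, 4.90 and 7.69 with ASIV. Every BTBR library was above every C57 library, and BTBR vehicle replicate 3 was more than double the other two of its group. The log2 difference between strains was 1.09 ± 0.27 under vehicle (SE; limma adjusted p = 0.00666), and that call held in all 23 alternatives. Under ASIV it was 1.02 ± 0.27 and did not pass (adjusted p = 0.0724), but it passed without BTBR vehicle replicate 3 in the fit (0.00375), without BTBR ASIV replicate 2 (0.0396) and with only the 6 libraries compared (0.0278). ASIV in BTBR gave -0.02 (95% interval -0.61 to 0.56).

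Zbtb16 (chromosome 9, 48654297 to 48836222) encodes PLZF, a zinc finger transcription factor. It stood at 4.34, 5.23 and 3.85 FPKM in C57 vehicle, at 4.68, 5.45 and 3.57 in C57 ASIV, at 8.08, 6.19 and 10.6 in BTBR vehicle and at 11.6, 8.50 and 6.56 in BTBR ASIV. Again the 6 BTBR libraries lay above the 6 C57 libraries. Under vehicle the log2 difference was 0.74 ± 0.21 (SE; limma adjusted p = 0.0126), and without BTBR vehicle replicate 3 it was 0.57 (0.0545). Under ASIV it was 0.81 ± 0.21 (adjusted p = 0.0634), which passed without BTBR vehicle replicate 2 (0.0348) or replicate 3 (0.0374) and among genes of at least 5 FPKM (0.0498).

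Sgk1 (chromosome 10, 21882184 to 21999903) encodes a serum- and glucocorticoid-induced kinase that in brain is known to respond in oligodendrocytes. It ranged from 11.9 to 15.6 FPKM over the 6 C57 libraries. In BTBR it was 31.2, 13.7 and 45.3 with vehicle and 33.1, 18.6 and 33.0 with ASIV. Replicate 2 was low in both BTBR groups, within the C57 range under vehicle and above it under ASIV. The log2 difference between strains was 0.94 ± 0.35 under vehicle (SE; limma adjusted p = 0.0503) and 0.95 ± 0.35 under ASIV (adjusted p = 0.180), and neither passed. Without BTBR vehicle replicate 2 both did, at 1.41 (0.000886) and 0.95 (0.0290), and the vehicle difference also passed without BTBR ASIV replicate 2 in the fit (0.0396), after rescaling to TPM (0.0417) and without the trend and robust options of limma (0.0389). The 7 oligodendrocyte markers summed to 1181, 497 and 839 FPKM in BTBR vehicle and to 865, 448 and 861 in BTBR ASIV, with replicate 2 lowest in both groups as for Sgk1, and to 567 to 957 over the C57 libraries. Of these 7 markers 1 was called higher and 0 lower in BTBR vehicle against C57 vehicle, and their part in the Sgk1 values was not tested.

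Pdk4 (chromosome 6, 5483351 to 5496309) encodes a kinase that inhibits pyruvate dehydrogenase and is also a target of PPAR receptors. It stood at 3.11, 3.46 and 3.49 FPKM in C57 vehicle, at 3.60, 3.15 and 2.58 in C57 ASIV, at 4.74, 4.45 and 3.77 in BTBR vehicle and at 7.26, 5.19 and 12.2 in BTBR ASIV. The 3 BTBR ASIV libraries were the highest of the 12. BTBR ASIV was higher than BTBR vehicle by a log2 difference of 0.73 ± 0.21 (SE; limma adjusted p = 0.0221) and higher than C57 ASIV by 1.10 ± 0.21 (adjusted p = 0.0182). Without BTBR ASIV replicate 3, the highest library, the first was 0.43 (0.0544). The first call was also lost without BTBR vehicle replicate 3 (0.0715) and with only the libraries compared (0.0834), the second without C57 ASIV replicate 2 (0.0727), C57 ASIV replicate 3 (0.0907) or BTBR ASIV replicate 1 (0.0512) and with only the libraries compared (0.0808). Under vehicle the strain difference of Pdk4 was 0.29 ± 0.21 (adjusted p = 0.296), although those groups did not overlap.

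Sult1a1 (chromosome 7, 126672865 to 126676432) encodes a sulfotransferase of phenols and catechols. It stood at 2.38, 2.87 and 4.04 FPKM in C57 vehicle, at 3.31, 2.56 and 3.20 in C57 ASIV, at 6.75, 3.38 and 9.60 in BTBR vehicle and at 11.6, 7.92 and 14.8 in BTBR ASIV. BTBR ASIV lay wholly above C57 ASIV, while BTBR vehicle replicate 2 lay within C57 vehicle. The log2 difference between strains was 1.59 ± 0.29 under ASIV (SE; limma adjusted p = 0.0176), a mean 3.78 times that of C57, and 0.82 ± 0.29 under vehicle (adjusted p = 0.0419). The vehicle call was lost in 11 of the 23 alternatives, among them without C57 vehicle replicate 1 (0.135) or 2 (0.104), BTBR vehicle replicate 1 (0.106) or 3 (0.160), any C57 ASIV library (0.0506 to 0.0539) or BTBR ASIV replicate 1 (0.0543), and with voom (0.0625), only the libraries compared (0.0612) or scaling without mitochondrial genes (0.0707). The ASIV call was lost without C57 ASIV replicate 2 (0.0810) or 3 (0.0655) or BTBR ASIV replicate 1 (0.0660) or 3 (0.0738). ASIV in BTBR gave 0.77 ± 0.29 for Sult1a1 (adjusted p = 0.0706), which passed without BTBR vehicle replicate 3 (1.05, 0.0189) or BTBR ASIV replicate 2 (0.99, 0.0394), with voom (0.0490) and without mitochondrial genes in the scaling (0.0351).

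Errfi1 (chromosome 4, 150853919 to 150868892) encodes MIG6, a feedback inhibitor of the EGF receptor. It stood at 6.93, 7.17 and 7.20 FPKM in C57 vehicle, at 6.92, 8.54 and 8.63 in C57 ASIV, at 4.84, 4.23 and 6.46 in BTBR vehicle and at 8.29, 9.51 and 9.34 in BTBR ASIV. Unlike the other induced genes that were called under vehicle, it was lower in BTBR, with all 3 BTBR vehicle libraries below the other 9. The log2 difference was -0.41 ± 0.13 (SE; limma adjusted p = 0.0200). That call was lost without C57 vehicle replicate 2 (0.0563) or 3 (0.0546) or BTBR vehicle replicate 1 (0.0577) or 2 (0.0704). ASIV in BTBR raised Errfi1 by 0.72 ± 0.13 (adjusted p = 0.00141), and the call held in all 23 alternatives. Between the ASIV groups the difference was 0.16 (adjusted p = 0.512; 95% interval -0.11 to 0.43).

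Cdkn1a (chromosome 17, 29090976 to 29100727) encodes p21, an inhibitor of cyclin-dependent kinases. It stood at 6.43, 8.70 and 5.96 FPKM in C57 vehicle, at 11.5, 10.9 and 5.57 in C57 ASIV, at 4.78, 6.10 and 8.36 in BTBR vehicle and at 8.11, 16.0 and 11.3 in BTBR ASIV. The groups overlapped in every comparison. The difference between BTBR ASIV and BTBR vehicle was 0.77 ± 0.28 (SE; limma adjusted p = 0.0616), which passed without BTBR vehicle replicate 3 (0.95, 0.0470), BTBR ASIV replicate 1 (0.99, 0.0318) or C57 ASIV replicate 3 (0.0257) and without mitochondrial genes in the scaling (0.0338). The strain differences of Cdkn1a were -0.13 under vehicle (adjusted p = 0.743) and 0.32 under ASIV (adjusted p = 0.560).

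**Figure D2:**
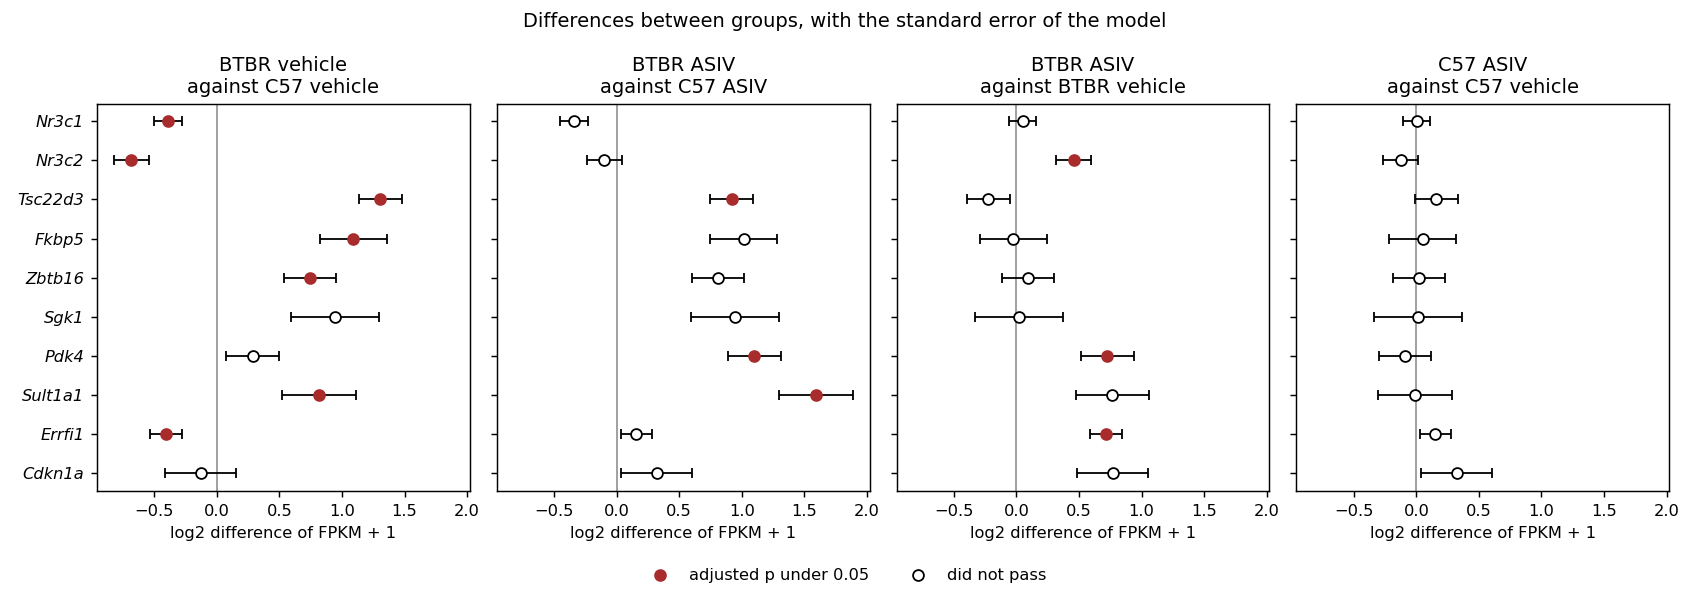
Log2 difference of FPKM + 1 (x axis) for each gene (y axis) in 4 comparisons, with whiskers for the standard error and filled points for genes called by limma. Tsc22d3 and Sult1a1 are called in both strain panels, and in the C57 ASIV panel no point is filled.

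Counted over the 10 genes, ASIV in BTBR raised 3, namely Errfi1, Pdk4 and Nr3c2, and lowered 0. Among all genes 29.1% were called, 13.7% higher and 15.4% lower, and the groups did not overlap for 3 of the 10 genes and for 39.1% of all genes. With only the 6 libraries compared in the fit, Errfi1 alone was called among the 10, and 2258 genes were called in all, against 3954. Without mitochondrial genes in the scaling 5 of the 10 were called. In C57 mice, 0 of the 10 genes and 0% of all genes were called by limma, with an adjusted p of 1.00 for each of the 10. At an unadjusted p under 0.05 there were 417 genes, none of the 10, and voom on the recovered fragments also called 0. The C57 groups overlapped for all 10, and 13.1% of all genes did not overlap. The 95% intervals of the response were -0.12 to 0.42 in C57 and 0.44 to 0.99 in BTBR for Errfi1, -0.55 to 0.37 and 0.27 to 1.18 for Pdk4, and -0.43 to 0.18 and 0.15 to 0.76 for Nr3c2, and those of Pdk4 and Nr3c2 overlapped between strains.

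The response to ASIV was compared between strains through the interaction term, the BTBR response minus the C57 response. By limma 0 of the 10 genes were called, where 14.3% of all genes were. Of all genes 6.91% were called with a higher and 7.36% with a lower response in BTBR. At an unadjusted p under 0.05 there were 3 of the 10 genes and 4031 of the 13586 genes tested, so that 3 of 10 is near the share over all genes. The 3 were Errfi1 with 0.56 ± 0.18 (SE; limma adjusted p = 0.0515), Nr3c2 with 0.58 ± 0.20 (adjusted p = 0.0687) and Pdk4 with 0.82 ± 0.30 (adjusted p = 0.0869). Errfi1 passed in 8 alternatives, at 0.71 (0.0114) without BTBR vehicle replicate 3, and both Errfi1 and Nr3c2 were called with voom on recovered fragments and with scaling that leaves out mitochondrial genes. Nr3c2 also passed without BTBR vehicle replicate 2 (0.0396) or BTBR ASIV replicate 2 (0.0412), Pdk4 without BTBR ASIV replicate 2 (1.07, 0.0164) and Tsc22d3, at -0.63, without BTBR vehicle replicate 2 (0.0227). At the threshold used, the 10 genes are not shown to respond differently in the strains.

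The strain comparison was made a second time between the ASIV groups, which share no library with the vehicle groups. Tsc22d3, Sult1a1 and Pdk4 were called, all higher in BTBR, where 2.53% of all genes were called, 1.31% higher and 1.22% lower. The count ranged from 0 to 6 of the 10 genes when 1 library was left out, and from 99 to 643 of all genes. Groups did not overlap for 7 of the 10 genes (Nr3c1, Tsc22d3, Fkbp5, Zbtb16, Sgk1, Pdk4 and Sult1a1), against 26.2% of all genes. The sign was the same in both strain comparisons for 8 of the 10 genes, all but Errfi1 and Cdkn1a, and for 66.5% of all genes.

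Within groups, several induced genes were high or low in the same library. BTBR vehicle replicate 3 held the highest level of its group for 7 genes (Tsc22d3, Fkbp5, Zbtb16, Sgk1, Sult1a1, Errfi1 and Cdkn1a) and the lowest for both receptors and Pdk4. BTBR vehicle replicate 2 held the lowest level for 5 (Tsc22d3, Zbtb16, Sgk1, Sult1a1 and Errfi1) and the highest for both receptors. The highest level was 3.32 times the lowest for Sgk1, 2.84 times for Sult1a1, 2.51 times for Fkbp5 and 1.85 times for Tsc22d3 in that group. In C57 vehicle the same ratios were 1.31, 1.70, 1.05 and 1.27. There, replicate 3 was highest for 5 genes (Tsc22d3, Sgk1, Pdk4, Sult1a1 and Errfi1). Replicate 1 of C57 vehicle was lowest for 5 (Nr3c2, Tsc22d3, Pdk4, Sult1a1 and Errfi1). In C57 ASIV, replicate 3 was highest for 5 and lowest for 4. How many of all genes were highest or lowest in each library was not counted. In BTBR ASIV, replicate 2 was lowest for Nr3c2, Fkbp5, Sgk1, Pdk4 and Sult1a1 and highest for Nr3c1, Errfi1 and Cdkn1a. The labels give no time of day or order of collection for these libraries. The markers of striatal neurons, which a dissection can include, also differed among the same libraries, at 118, 195 and 45.6 FPKM in BTBR vehicle and 141, 42.5 and 290 in BTBR ASIV, and their part was not tested.

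**Figure D3:**
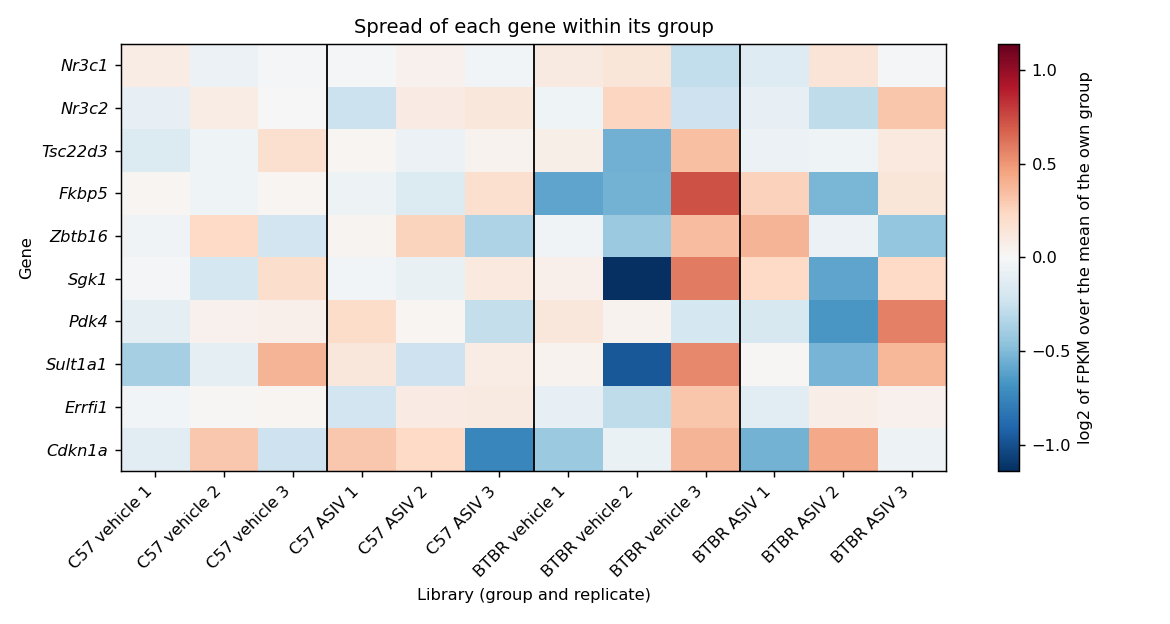
Log2 of each level over the mean of its own group (colour) for the 10 genes (rows) in the 12 libraries (columns), with lines between groups. In BTBR vehicle, library 3 is high for Fkbp5, Sgk1 and Sult1a1 and low for Nr3c1, and library 2 is low for Sgk1 and Sult1a1.

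A wider list of 28 genes known to be induced by glucocorticoids gave 27 that could be tested. Of these 5 were called in BTBR vehicle against C57 vehicle, where 43.1% of all genes were, and 6 with ASIV in BTBR, where 29.1% of all genes were, so that neither count exceeds the share over all genes. Under vehicle 4 were higher in BTBR, namely Gjb6, a gap junction gene of astrocytes (0.90 ± 0.20, limma adjusted p = 0.00378), Glul, glutamine synthetase (0.43 ± 0.11), Ddit4, an inhibitor of mTOR signalling (1.11 ± 0.36), and Sesn1 (0.32 ± 0.11), and 1 was lower, the metallothionein gene Mt2 (-1.07 ± 0.37). The median of the 27 differences was 0.15 against 0.01 for all genes, and without mitochondrial genes in the scaling 2 were higher and 4 lower, with a median of 0.07. ASIV in BTBR raised 6 and lowered 0: Bcl6, a transcriptional repressor (0.59 ± 0.10), Mfsd2a, the lipid transporter of the blood-brain barrier (1.08 ± 0.19), Fam107a (0.83 ± 0.17), Mt2 (1.64 ± 0.37), Hif3a and Mt1. Of all genes 13.7% were called higher and 15.4% lower, and the median of the 27 was 0.33 against -0.01 for all genes. Between the ASIV groups 7 were called higher in BTBR and 0 lower, where 2.53% of all genes were called, 1.31% higher and 1.22% lower. Of the 27 estimates 26 were above 0, and the median was 0.58 against 0.00. In that comparison estimates were also above 0 for 6 of 6 striatal neuron markers (median 0.97), 5 of 5 markers of oligodendrocyte precursors (0.31) and 6 of 7 astrocyte markers (0.28), of which 0 were called by limma, and their part in the result was not tested. With ASIV in C57, 0 of the 27 were called, where 0% of all genes were. The interaction was called for 3, all with the higher response in BTBR (Fam107a, Mfsd2a and Bcl6). Of all genes 14.3% were called in the interaction, 6.91% with a higher and 7.36% with a lower response in BTBR.

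**Figure D4:**
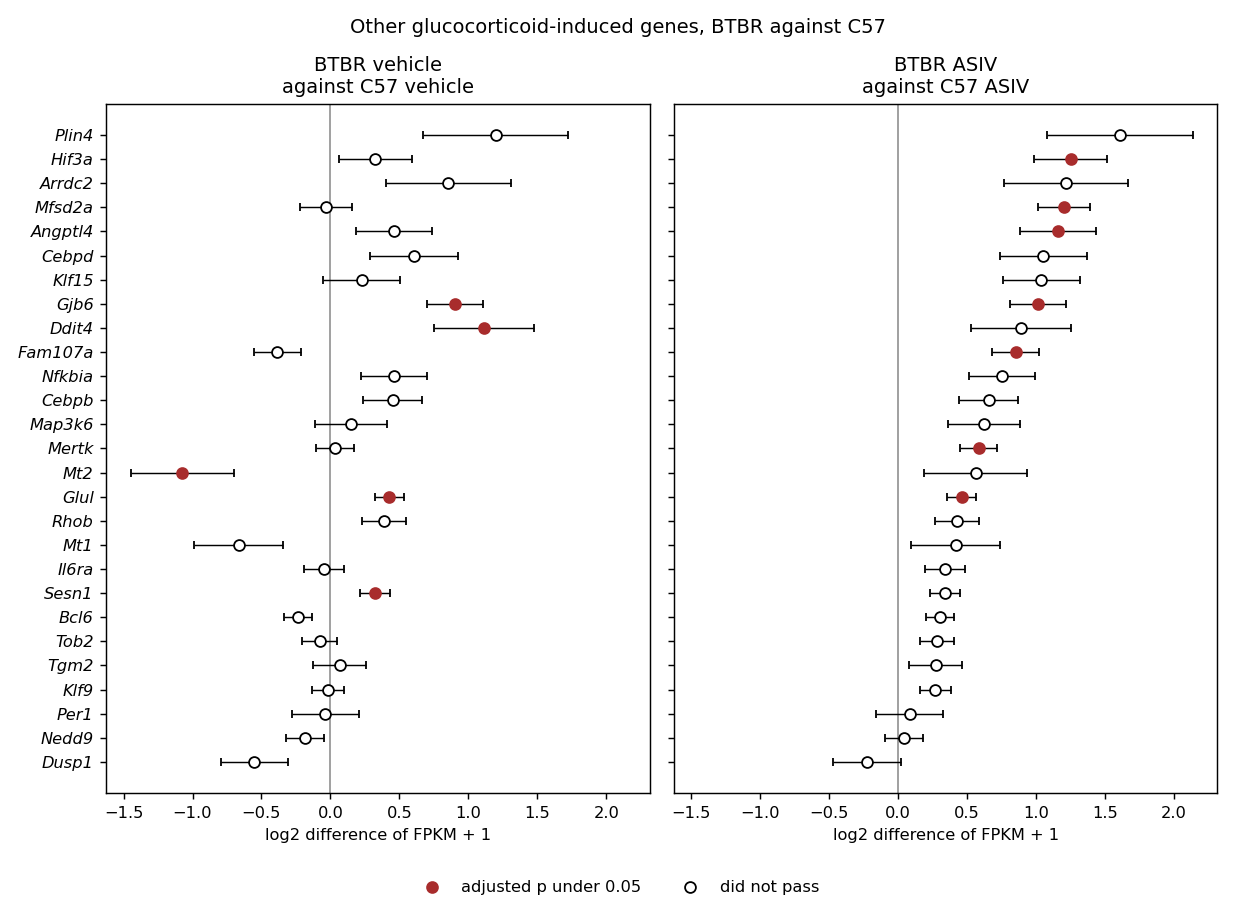
Log2 difference of FPKM + 1 (x axis) between BTBR and C57 for 27 further glucocorticoid-induced genes (y axis, ordered by the right panel), with whiskers for the standard error, under vehicle (left) and under ASIV (right). On the right 26 of 27 points lie above 0 and 7 are filled, which marks calls by limma.

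Among the chaperones and coregulators of the receptors, calls were made in both comparisons that involve BTBR vehicle, where 43.1% and 29.1% of all genes were called. Of 12 chaperone genes, 5 were higher in BTBR vehicle than in C57 vehicle, 2 were lower and 5 did not pass. Bag1 (0.73 ± 0.13), Ppid (0.47 ± 0.09) and Fkbp4 (0.41 ± 0.09), co-chaperones of HSP70 or HSP90, were among the higher, and Dnajb1, an HSP40 gene, was lower (-0.86 ± 0.15). With ASIV in BTBR, 5 were lower, 1 was higher and 6 did not pass, with Bag1 at -0.55 ± 0.13, Ppid at -0.39 ± 0.09, Fkbp4 at -0.45 ± 0.09 and Dnajb1 at 0.80 ± 0.15. Of 12 coregulator genes, 10 were lower in BTBR vehicle and 0 higher (median -0.42), including the chromatin remodeller Arid1a (-0.73 ± 0.10), the coactivator Ncoa2 (-0.71 ± 0.11) and the arginine methyltransferase Carm1 (-0.62 ± 0.09). ASIV in BTBR raised 7 of them and lowered 0 (median 0.34), with Arid1a at 0.58 ± 0.10, Ncoa2 at 0.53 ± 0.11 and Carm1 at 0.50 ± 0.09. The vehicle count of coregulators was 5 lower after rescaling to TPM. Both comparisons share the BTBR vehicle libraries, so values of opposite sign are not independent of each other. Between the ASIV groups 0 of the 12 chaperones (median -0.17) and 0 of the 12 coregulators (median 0.01) were called by limma. Only 2.53% of all genes were called there, so that 0 of 12 is near the share over all genes.

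The other lists held calls in both directions under vehicle. Of all genes 43.1% were called in BTBR vehicle against C57 vehicle and 29.1% with ASIV in BTBR, and the counts below stand beside those shares. Among 8 tested genes of local steroid metabolism and efflux, Hsd17b4 was higher under vehicle (0.49 ± 0.10), and Cyp7b1, an oxysterol and neurosteroid hydroxylase (-0.65 ± 0.09), and Hsd11b1, which regenerates active glucocorticoid (-0.51 ± 0.18), were lower. ASIV in BTBR raised Cyp7b1 (0.61 ± 0.09) and lowered Hsd17b4 (-0.39 ± 0.10). Among 6 tested genes of the corticotropin-releasing hormone system, the receptor Crhr1 was lower (-0.88 ± 0.19) and Avp, vasopressin, higher (0.61 ± 0.17) under vehicle. The level of Avp was low, with means of 0.36 FPKM in C57 ASIV and 0.91 FPKM in BTBR ASIV. With ASIV in BTBR 0 of the 6 were called. Of 5 other steroid hormone receptors tested, Esrra was higher (0.47 ± 0.09) and Esrrg (-0.47 ± 0.14) and Gper1 (-0.45 ± 0.15) lower under vehicle, and ASIV in BTBR lowered Esrra (-0.50 ± 0.09) and Pgr (-0.36 ± 0.10). For comparison with Cdkn1a, 5 of 11 p53 target genes were higher and 1 lower under vehicle, among them Phlda3 (0.77 ± 0.13), Mdm2 (0.67 ± 0.09) and Bax (0.43 ± 0.11) against Sesn2 (-0.57 ± 0.09). With ASIV in BTBR 1 p53 target was higher and 3 lower. For comparison with Pdk4, 2 of 13 genes in a list of PPAR targets and other Pdk genes were higher and 3 lower under vehicle. Acadm was at 0.67 ± 0.08, and Pdk2 and Pdk3 were at -0.52 ± 0.11 and -0.46 ± 0.12. ASIV in BTBR raised 3, among them Ucp2 (1.17 ± 0.21) and Pdk2 (0.51 ± 0.11), and lowered 3, of which Acadm had the smallest p (-0.55 ± 0.08). Without mitochondrial genes in the scaling, the counts for ASIV in BTBR were 2 higher and 1 lower for p53 targets. They were 5 higher and 1 lower for the list of PPAR targets and other Pdk genes. For steroid metabolism they were 3 higher and 0 lower, and for the chaperones 1 higher and 2 lower.

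**Figure D5:**
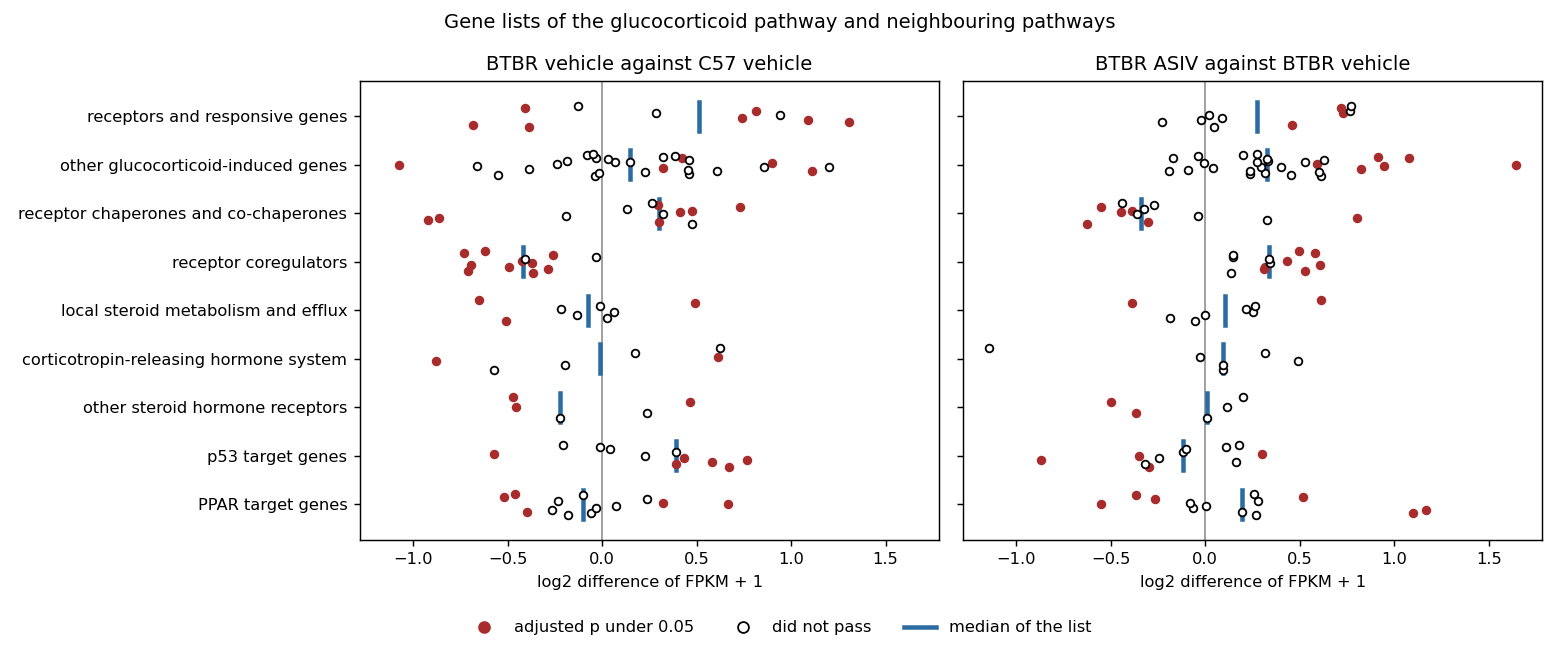
Log2 difference of FPKM + 1 (x axis) for the genes of each list (y axis) in BTBR vehicle against C57 vehicle (left) and BTBR ASIV against BTBR vehicle (right), with filled points for calls by limma and a blue line for the median of the list. The coregulators lie below 0 on the left, with a median of -0.42, and above 0 on the right, with a median of 0.34.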

How the data were processed

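RNA was extracted with Trizol and sequenced from standard Illumina libraries, per the labels' protocols. The submitters' processing notes name HISAT2 2.0.5 and mm10, and name no counting program, annotation or strand setting (not given in the sources used here). The authors deposited 1 table of FPKM per Ensembl gene, 17283 genes by 12 libraries. Of the IDs, 17273 matched GENCODE M21, which gave symbols and exon lengths. FPKM times exon length came out as whole fragments (within 0.02) for 95.7 to 95.8% of values, which gave each library's depth.

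Genes with at least 1 FPKM in at least 3 libraries (13586) were fitted with limma 3.58.1 in R 4.3.3 (trend and robust options) on log2(FPKM + 1), with 4 group means, 8 residual degrees of freedom, 5 comparisons and Benjamini-Hochberg adjustment. The fit was tested on simulated data. Other steps used Python 3.11.15. The 10 genes are named in every comparison, as are, from each of 8 lists, up to 4 genes with the smallest p in each of BTBR vehicle against C57 vehicle and BTBR ASIV against BTBR vehicle. Some genes that this rule names are not reported here. Hif3a, Mt1 and the genes called in the interaction were named after their values were seen. The genes and lists were chosen with earlier results of these data known. The labels do not say whether replicates are separate animals, so p-values measure the spread between these libraries, which may be technical. The 23 alternatives were other pseudocounts, filters, scalings, fits and leaving out each library. Promoter sequences are from RefSeq, GRCm38.p6.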

Additional observations from a re-analysis of the deposited data

Results flagged for a closer look

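The response to ASIV was compared between strains for 50 genes, the 10 receptors and induced genes and 40 others named from the lists. By limma's interaction term (the log2 response in BTBR minus that in C57, ± SE), 15 were called, all outside the 10, with 10 higher and 5 lower in BTBR, where 14.3% of all genes were called. The 40 were named for their p in comparisons that share the BTBR vehicle libraries with this term, so the count is a description and no evidence about the lists. Each of these contrasts includes the BTBR vehicle libraries, whose mitochondrial share was low, and the part of that share was not tested.

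Among induced genes the difference was 1.24 ± 0.24 (adjusted p = 0.00671) for Fam107a, 1.24 ± 0.27 (adjusted p = 0.0109) for Mfsd2a and 0.55 ± 0.14 (adjusted p = 0.026) for Bcl6. Mfsd2a had mean FPKM of 9.33 and 8.32 in C57 with vehicle and ASIV and of 9.44 and 20.3 in BTBR. Among coregulators it was 0.76 ± 0.14 (adjusted p = 0.00481) for Arid1a, 0.78 ± 0.13 (adjusted p = 0.00392) for Carm1 and 0.58 ± 0.15 (adjusted p = 0.0229) for Ncoa2. Among chaperones, Dnajb1 gave 0.87 ± 0.21 (adjusted p = 0.0178), Fkbp4 -0.54 ± 0.13 (adjusted p = 0.0166) and Ppid -0.57 ± 0.13 (adjusted p = 0.0112). The hydroxylase gene Cyp7b1 gave 0.68 ± 0.13 (adjusted p = 0.00525). The p53 targets Mdm2 and Phlda3 gave -0.59 ± 0.12 (adjusted p = 0.00848) and -0.78 ± 0.18 (adjusted p = 0.0139). In the list of PPAR targets and other Pdk genes, Ucp2 gave 1.26 ± 0.30 (adjusted p = 0.016), Pdk2 0.63 ± 0.15 (adjusted p = 0.016) and Acadm -0.52 ± 0.11 (adjusted p = 0.0112).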

How the results depend on the processing

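For the 10 genes, 1140 values under alternatives gave 1021 with the same direction and side of the threshold, 35 that fell short of it, 38 that newly passed it and 46 of the opposite sign, none of which had been called. The count of the 10 genes called ranged from 5 to 8 in BTBR vehicle against C57 vehicle over leaving out 1 library, from 1 to 4 for ASIV in BTBR, from 0 to 6 between the ASIV groups and from 0 to 2 for the interaction. Genes called in all ranged from 99 to 643 between the ASIV groups, from 0 to 1 for ASIV in C57 and from 1166 to 2178 for the interaction. With only the libraries compared, ASIV in BTBR gave 1 of the 10 genes and 2258 of all genes, and without mitochondrial genes 5 of the 10. The interaction gave 1 of the 10 with genes of at least 5 FPKM, TPM, median-ratio scaling or quantile normalization, and 2 without mitochondrial genes or with voom. Same-numbered libraries correlated at -0.17 to 0.28 in their deviations. The labels do not say whether the numbers pair the libraries, and with 3 libraries a group these correlations cannot settle it. With the replicate block 8 of the 10 were called under vehicle, 4 for ASIV in BTBR, 4 between the ASIV groups and 1 for the interaction, newly Sgk1 (adjusted p = 0.00912), Sult1a1 (0.0124), Fkbp5 (0.0382) and Errfi1 (0.0417) in that order.

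Signs turned only for small estimates. Without mitochondrial genes Fkbp5 gave 0.11 for ASIV in BTBR and 0.037 for the interaction, and Sult1a1 gave 0.017 for ASIV in C57. With TPM the C57 value of Sult1a1 was 0.034 and the interactions of Nr3c1 and Sgk1 were -8.1e-05 and -0.039. Median-ratio scaling gave -0.0014 for Nr3c1 in C57, and voom 0.0048 for Sult1a1 in C57. Leaving out 1 library gave, for BTBR vehicle against C57 vehicle, -0.31 to 0.037 for Cdkn1a and -0.40 to 0.0027 for Akr1c18. For ASIV in BTBR it gave -0.23 to 0.36 for Fkbp5, -0.075 to 0.12 for Nr3c1, -0.45 to 0.38 for Sgk1, -0.10 to 0.27 for Zbtb16, -0.18 to 0.32 for Crhbp and -0.0499 to 0.24 for Gper1. For ASIV in C57 it gave -0.023 to 0.10 for Fkbp5, -0.0297 to 0.042 for Nr3c1, -0.073 to 0.11 for Sgk1, -0.14 to 0.15 for Sult1a1, -0.10 to 0.15 for Zbtb16 and -0.17 to 0.0066 for Pdk4. For the interaction it gave -0.28 to 0.31 for Fkbp5, -0.078 to 0.12 for Nr3c1, -0.46 to 0.37 for Sgk1 and -0.12 to 0.25 for Zbtb16, and between the ASIV groups -0.24 to 0.012 for Nr3c2. The cause of these changes was not tested. The 3 libraries of each group limit the precision more than depth does.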
